A study of Mus musculus with 3 samples.

Results

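The unfolded protein response, the integrated stress response and the heat shock response were described through 42 genes, chosen by symbol. They comprise 4 stress sensors and transcription factors of the endoplasmic reticulum (Ern1, Eif2ak3, Atf6 and Xbp1), 12 chaperones and folding enzymes of that organelle, 5 genes of its degradation pathway, 11 genes of the integrated stress response and 10 heat shock genes. All 42 symbols were found among the 55536 annotated genes of the deposited tables, under 43 gene identifiers. The extra identifier is a short second entry for Ddit3 (ENSMUSG00000116429.1) that overlaps the main gene and held 1.76, 0 and 0 counts in replicates 1, 2 and 3, and it was left aside.

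Macrophages had been derived from C57BL/6J bone marrow, and total RNA of their cytoplasmic fraction was depleted of ribosomal RNA and sequenced. The cells had been given Lipid A, a TLR4 ligand from the outer membrane of bacteria, at 100 ng/ml for 12 h. Lipid A was then washed out for 12 h and given again at 100 ng/ml for 90 min. These 3 libraries form 1 group with biological replicates numbered 1 to 3, and share 1 donor record, so every SD and p-value here measures the spread between these samples only. No mutation, transgene or other agent is named in the labels, and neither age nor sex is given. Cells without Lipid A, cells exposed once, nuclear RNA and whole-cell RNA were not analysed here. The values are therefore levels in the cytoplasmic fraction after a repeated exposure and not responses to it.

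Proteins that enter the secretory pathway fold in the endoplasmic reticulum (ER), and unfolded proteins there activate 3 sensors. IRE1 alpha, encoded by Ern1, cuts a short stretch out of the Xbp1 mRNA, which then encodes the active factor XBP1. PERK, encoded by Eif2ak3, phosphorylates the translation initiation factor eIF2, and ATF6 is cut in the Golgi to release a transcription factor that induces ER chaperones. The phosphorylation of eIF2 is shared with kinases that sense amino acid shortage, viral RNA and haem shortage, and the program that follows, in which ATF4 is translated, is the integrated stress response. The cytosol has its own program, in which HSF1 induces heat shock proteins. In macrophages, TLR4 ligands are known to engage IRE1 and XBP1 and to hold back the ATF4 to CHOP branch, which is stated here as background only.

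The labelled cell type was checked first. All 10 macrophage markers (Adgre1, Csf1r, Cd68, Lyz2, Itgam, Mertk, Fcgr1, Cd14, Spi1 and Fcer1g) were detected, with summed levels of 6486, 7099 and 6385 TPM (a level corrected for transcript length and scaled to the same total in each library) in replicates 1, 2 and 3. None of the 8 plasma cell and B cell markers was detected, and their sum was 1.06, 1.29 and 0.96 TPM. That comparison matters for secretory pathway genes, since plasma cells are rich in ER. Of 7 neutrophil markers only S100a8 was detected (4.12 ± 1.39 TPM), and Ly6g and Retnlg had no count in any library. None of the 21 markers of T cells, dendritic cells, erythroid cells, mast cells and stromal cells was detected. The libraries held 40637857, 70407572 and 49678390 expected counts on annotated genes in replicates 1, 2 and 3, of which the 42 genes took 0.857 ± 0.0469% (SD, n = 3).

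Sequence elements through which stress factors are known to act were searched in the promoters, and stretches that hold them are shown so that the levels below can be read beside them. Promoter windows of 300 bases, from 250 before to 50 after each transcription start, were taken from RefSeq (GRCm38.p6, the assembly also called mm10) and were found for 34 of the 42 genes. The ER stress response element (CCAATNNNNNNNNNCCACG, bound by NF-Y and ATF6) was searched on both strands. It occurred in the windows of 7 of the 34 genes, and in 37 of 27025 genes with a window (0.137%). This element and those below were chosen because stress factors are known to act through them in genes such as these. A higher share among the 34 was thus built into the choice and is description only. Of these 7, 6 were ER chaperones or folding enzymes, a role with 10 genes that have a window, and the seventh was the ubiquitin ligase gene Syvn1. The 6 stretches of the chaperones and folding enzymes follow, 5′ to 3′ on the strand of the gene. Capitals mark the outer letters of the element, which read CGTGG and ATTGG where it lies on the other strand.
Hspa5: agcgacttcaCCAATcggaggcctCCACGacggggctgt
Hsp90b1: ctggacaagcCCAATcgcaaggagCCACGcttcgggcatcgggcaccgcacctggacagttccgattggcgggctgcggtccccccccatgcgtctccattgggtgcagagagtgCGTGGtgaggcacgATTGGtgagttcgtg
Calr: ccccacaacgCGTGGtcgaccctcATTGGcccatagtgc
Canx: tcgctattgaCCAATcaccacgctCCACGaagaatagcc
Pdia6: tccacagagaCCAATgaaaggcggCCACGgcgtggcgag
Dnajc3: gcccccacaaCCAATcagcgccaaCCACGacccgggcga

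These stretches lie at chr2:34772015-34772053 (plus strand) for Hspa5, chr10:86705523-86705666 (minus strand) for Hsp90b1, chr8:84847065-84847103 (minus strand) for Calr, chr11:50325790-50325828 (minus strand) for Canx, chr12:17266481-17266519 (plus strand) for Pdia6 and chr14:118937817-118937855 (plus strand) for Dnajc3. Hsp90b1 held the element 2 times, once on each strand. The element of Syvn1 lay nearest to its start (bases -44 to -26, counted from the base before the start as -1), and that of Hsp90b1 farthest (bases -212 to -194).

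Other elements were found in fewer of the genes. The related element ERSE-II (ATTGG, 1 base of any kind, CCACG) occurred in 0.0444% of all genes with a window and in 1 of the 34, Herpud1. The core of the CARE element bound by ATF4 (TGATGNAA) is short, occurred in 4.51% of all genes and was present in 4 of the 34, the integrated stress genes Asns, Trib3 and Chac1 (3 of 11) and Herpud1. In Trib3 this core lay after the start, at bases 15 to 22. The heat shock element (GAANNTTCNNGAA or TTCNNGAANNTTC, whose forms can overlap) occurred in 0.662% of all genes and in 3 of 6 heat shock genes with a window, Hspd1, Hspe1 and Hsph1. In Hsph1 it lay after the start. Hspa8, Hsp90aa1, Hsp90ab1 and Hsf1 had no window. Only exact matches within the windows were counted, so a gene without one was not shown to lack the element. Hspd1 and Hspe1 share 1 stretch with this element between their RefSeq starts, because they are divergent neighbours whose windows overlap. The XBP1-binding core TGACGTGG or TGACGTGA was found in 1.22% of all genes and in 1 of the 34, Hspa5. The following stretches show ERSE-II of Herpud1 (chr8:94386367-94386397, plus strand), the CARE cores of Asns (chr6:7693215-7693242, minus strand) and Chac1 (chr2:119351039-119351066, plus strand, core on the other strand), and the heat shock elements of Hspe1 (chr1:55088049-55088086, plus strand). Capitals mark the letters of each element.
Herpud1: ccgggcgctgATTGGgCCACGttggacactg
Asns: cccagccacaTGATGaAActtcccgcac
Chac1: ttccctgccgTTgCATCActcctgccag
Hspe1: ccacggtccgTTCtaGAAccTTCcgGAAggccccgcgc

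Of the 42 genes, 41 were detected, defined as 1 TPM or more in all 3 libraries, against 16.7% of the 55536 annotated genes and 40.1% of the 22028 protein-coding genes. The exception was Ddit4. At 10 TPM or more in every library there were 25 of the 42, against 16.6% of protein-coding genes, and at 100 TPM or more there were 6 (Hspa5, Hsp90b1, Calr, Canx, Hspa8 and Hsp90ab1), against 1.87%. The median of the mean levels was 16.9 TPM over the 42 genes and 8.51 TPM over the 8838 detected protein-coding genes. Levels were spread from 0.227 TPM for Ddit4 to 516 TPM for Hspa8. In a fraction of cells, less RNA per cell and fewer cells that hold the RNA cannot be told apart.

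**Figure D1:**
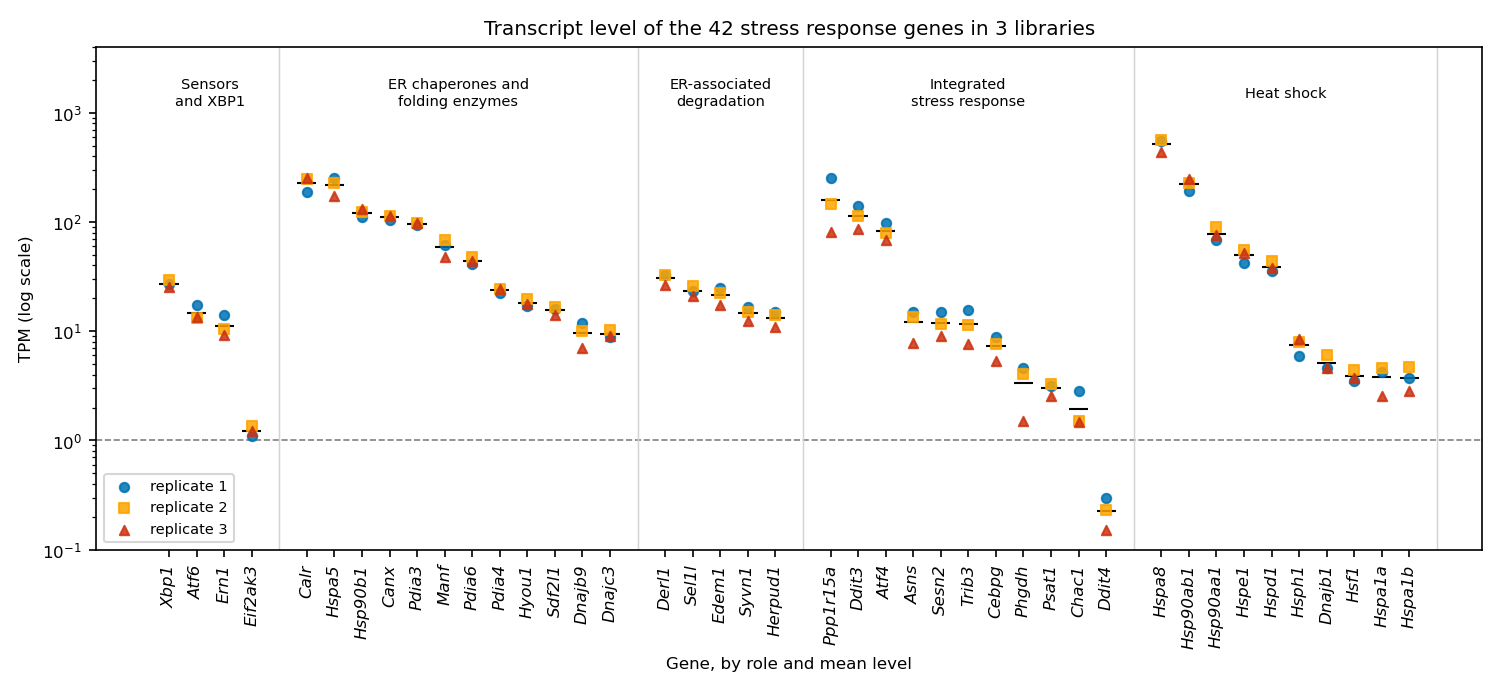
Level of each of the 42 genes in TPM on a log axis, by role and ordered by mean level within a role; points are the 3 libraries, short black lines their means, and the dashed line marks the detection threshold of 1 TPM. All genes but Ddit4 lie above the threshold in every library, and the ER chaperones and the constitutive heat shock genes reach the highest levels.

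Each role was set against the detected protein-coding genes of the same library, as the median of log2(TPM + 1) over the role minus the median over those genes. ER chaperones and folding enzymes stood 2.46 ± 0.11 log2 units above that median (SD, n = 3), the largest difference of the 5 roles. Degradation genes stood 1.21 ± 0.15 above it, heat shock genes 0.96 ± 0.22 and the sensors with Xbp1 0.54 ± 0.19. Integrated stress genes stood 0.71 and 0.37 above it in replicates 1 and 2, and -0.05 from it in replicate 3. No p is given for these differences, since the smallest that 3 libraries allow in an exact two-sided sign-flip test is 0.25.

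Among the sensors, Ern1 was far more abundant than Eif2ak3. Ern1 (ENSMUSG00000020715.9, chromosome 11, 106394650 to 106487852) stood at 14.0, 10.5 and 9.21 TPM in replicates 1, 2 and 3. Eif2ak3 (ENSMUSG00000031668.14, chromosome 6, 70844515 to 70905245) stood at 1.11, 1.36 and 1.23 TPM, just above the detection threshold and at percentile 1.11 of the detected protein-coding genes. Their values did not overlap, and the log2 ratio of Ern1 to Eif2ak3 was 3.17 ± 0.42, a 9.01-fold higher level. Atf6 was present at 17.4, 13.35 and 13.6 TPM.

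Xbp1 (ENSMUSG00000020484.18, chromosome 11, 5520659 to 5525893) was the most abundant of the 4, at 27.0, 29.3 and 25.3 TPM, and its CV of 7.40% (SD as a percent of the mean) was under the median CV of the detected protein-coding genes, 10.1% (9.84 against 10.7% with TPM rescaled over nuclear protein-coding genes, called the protein-coding scale below). The stretch that IRE1 is known to remove lies in the coding part of this mRNA, and is shown within transcript Xbp1-201 (chr11:5524267-5524316, plus strand), where the 26 bases in capitals run from base 815 to base 840 of the transcript.
Xbp1: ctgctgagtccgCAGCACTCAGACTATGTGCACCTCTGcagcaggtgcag

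The stretch was located by a search of the whole Xbp1-201 transcript for CNGCAGN, the conserved letters of the IRE1 cut, 26 bases apart. It lies within the coding part, bases 337 to 1137. A further pair of matches, at bases 458 to 483, is not the known site. Xbp1-201 took 98.7, 99.2 and 98.6% of the Xbp1 level in replicates 1, 2 and 3. No annotated Xbp1 transcript has an intron under 300 nt, so the form without these 26 bases is not an entry of the annotation. These tables therefore give the sum of the cut and uncut Xbp1 mRNA, and the share of each was not measured.

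The chaperones of the ER were the most abundant of its genes. Calr, encoding the calcium-binding lectin chaperone calreticulin (ENSMUSG00000003814.8, chromosome 8, 84841850 to 84846934), stood at 187, 248 and 251 TPM. Hspa5, encoding BiP, the Hsp70 of the ER that also holds the sensors inactive (ENSMUSG00000026864.13, chromosome 2, 34771970 to 34777547), stood at 253, 229 and 173 TPM. Hsp90b1, encoding the ER Hsp90 GRP94, stood at 110.2, 124 and 132 TPM. In TPM Hspa5 was highest in replicate 1 and lowest in replicate 3, and Calr and Hsp90b1 were the other way round; on the protein-coding scale Hspa5 was highest in replicate 2. The log2 ratio of Hspa5 to Hsp90b1, which no scaling of a library changes, ranged widely, from 1.20 in replicate 1 to 0.89 in replicate 2 and 0.39 in replicate 3 (mean 0.83 ± 0.41), with Hspa5 higher in all 3. Calr was 2.05-fold higher than Canx, its membrane-bound relative, which stood at 104, 113 and 114 TPM (log2 ratio 1.04 ± 0.17).

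In TPM, Pdia3 and Pdia4 had the smallest CV of the 42 genes, but on the protein-coding scale their CV was 11.2 and 12.5%, and Syvn1 had the smallest (6.79%). Pdia3, the isomerase that works with calreticulin and calnexin, stood at 92.9, 98.0 and 97.6 TPM, a CV of 2.95% in TPM. Pdia4 stood at 22.6, 24.2 and 24.4 TPM, so their log2 ratio was nearly fixed, at 2.02 ± 0.02, a 4.05-fold higher level of Pdia3. Pdia6 stood at 41.6, 47.4 and 43.6 TPM. Manf, encoding a secreted ER protein that binds BiP, stood at 62.1, 68.1 and 47.6 TPM.

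BiP's cofactors were lower than BiP itself. The nucleotide exchange factor gene Hyou1 stood at 17.1, 19.9 and 17.6 TPM and Sdf2l1, which works with ER J proteins, at 16.0, 16.7 and 14.1 TPM. Of the 2 J protein genes, Dnajb9 stood at 11.8, 9.98 and 7.08 TPM and Dnajc3, which also inhibits eIF2 kinases, at 8.82, 10.3 and 9.03 TPM. In TPM Dnajb9 was the chaperone gene whose libraries lay farthest apart, with a highest value 1.67 times the lowest, whereas on the protein-coding scale Calr was (1.59 times). Over the 12 genes of this role the median CV was 8.48% in TPM, below that of the detected protein-coding genes, and 13.3% on the protein-coding scale, above theirs. Of the 12, 8 were lowest in replicate 1, against 24.1% of the detected protein-coding genes, but this depends on the scale: on the protein-coding scale 9 of 12 were, against 58.6%.

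The degradation genes lay close together, from 13.4 to 30.7 TPM in mean level. Derl1, a part of the channel through which misfolded proteins leave the ER, stood at 32.4, 32.9 and 26.7 TPM. Sel1l and Syvn1 encode the partner and the catalytic part of 1 ubiquitin ligase. Sel1l stood at 23.5, 25.8 and 21.1 TPM and Syvn1 at 16.5, 15.1 and 12.5 TPM, a log2 ratio of 0.68 ± 0.15 with Sel1l higher in every library. Edem1, which picks out misfolded glycoproteins, stood at 25.1, 22.2 and 17.4 TPM, and Herpud1, which recruits the ligase, at 15.0, 14.1 and 11.0 TPM. In TPM all 5 were lowest in replicate 3, as were 54.6% of the detected protein-coding genes; on the protein-coding scale 4 were, against 23.7%, and Sel1l was lowest in replicate 1. None had a highest value 1.5 or more times its lowest.

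The integrated stress genes were led by 3 abundant mRNAs. Ppp1r15a, encoding GADD34, the subunit that directs a phosphatase to eIF2 and so ends the response (ENSMUSG00000040435.12, chromosome 7, 45522916 to 45526268), stood at 253, 146 and 80.2 TPM. Ddit3, encoding the factor CHOP (ENSMUSG00000025408.15, chromosome 10, 127290774 to 127296288), stood at 139, 113 and 86.3 TPM. Atf4, whose mRNA is translated when eIF2 is phosphorylated, stood at 98.6, 80.1 and 69.0 TPM. All 3 were highest in replicate 1 and lowest in replicate 3. Ddit3 was higher than Atf4 in every library (log2 ratio of Atf4 to Ddit3 -0.44 ± 0.10). Ppp1r15a was higher than Ppp1r15b, the other subunit of this kind, by 2.70, 2.26 and 1.34 log2 units in replicates 1, 2 and 3. Ppp1r15b stood at 38.9, 30.5 and 31.6 TPM.

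The remaining genes of this role were lower than Ppp1r15a, Ddit3 and Atf4 in every library. Sesn2, a sestrin that senses leucine, stood at 15.0, 11.6 and 8.98 TPM, Trib3, a pseudokinase induced by CHOP, at 15.7, 11.4 and 7.61 TPM, and Asns, the asparagine synthetase, at 15.1, 13.4 and 7.87 TPM. Cebpg, a dimer partner of ATF4, stood at 8.89, 7.62 and 5.34 TPM. Each of these 4 was again highest in replicate 1 and lowest in replicate 3. Chac1, which degrades glutathione, stood at 2.83, 1.52 and 1.49 TPM. The serine synthesis genes Phgdh and Psat1 were at 4.58, 4.04 and 1.51 TPM and at 3.18, 3.26 and 2.56 TPM. Psat1 was below Phgdh in replicates 1 and 2 and above it in replicate 3 (log2 ratios -0.53, -0.31 and 0.76), so no order of these enzymes held over the libraries.

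Ddit4, encoding the mTORC1 inhibitor REDD1, was the exception among these genes. Its level was 0.30, 0.23 and 0.15 TPM, from 28, 42 and 20 counts. Its log2 ratio to Sesn2, another stress-induced inhibitor of mTORC1, was -5.73 ± 0.15, and it lay below Sesn2 in all 3 libraries.

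The heat shock genes spanned a wide range of mean levels, from 3.74 TPM for Hspa1b to 516 TPM for Hspa8. Hspa8, the constitutive cytosolic Hsp70 (ENSMUSG00000015656.17, chromosome 9, 40800984 to 40810087), was the most abundant of the 42, at 546, 559 and 442 TPM, at percentile 99.3 of the detected protein-coding genes. The Hsp90 genes followed, with Hsp90ab1, the constitutive form, at 190.3, 228 and 245 TPM and Hsp90aa1, the inducible form, at 67.9, 89.1 and 75.5 TPM. Their log2 ratio was 1.51 ± 0.18, a 2.86-fold higher level of Hsp90ab1 that held in every library. Hspa5 was below Hspa8 by a log2 ratio of -1.25 ± 0.13.

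The stress-inducible Hsp70 genes were low. Hspa1a (ENSMUSG00000091971.3, chromosome 17, 34969190 to 34972156) stood at 4.23, 4.63 and 2.55 TPM and its neighbour Hspa1b (ENSMUSG00000090877.3, chromosome 17, 34956436 to 34959238) at 3.70, 4.70 and 2.82 TPM. Both lay far below Hspa8 in every library, which was 139-fold and 140.0-fold higher. The split between Hspa1a and Hspa1b is uncertain because they are near-identical copies, and the posterior SD that the deposited table gives for their counts was at most 2.51% of the count. Their log2 ratio was -0.01 ± 0.17, with mixed sign, so no difference between these copies was larger than the spread. Hsf1, encoding the heat shock factor, stood at 3.53, 4.44 and 3.77 TPM, the J protein gene Dnajb1 at 4.56, 6.03 and 4.65 TPM and the exchange factor gene Hsph1 at 5.97, 7.91 and 8.50 TPM.

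The mitochondrial chaperonin genes Hspd1 (HSP60) and Hspe1 (HSP10), which work as 1 complex, stood at 35.4, 43.8 and 38.0 TPM and at 42.6, 55.8 and 52.2 TPM. Their log2 ratio was -0.36 ± 0.10. In the GENCODE M21 annotation, whose starts differ here from those of RefSeq, they overlap head to head over 112 exonic bases. No source used here states if strand entered the counting, so reads from this stretch cannot be told apart. The same holds for the opposite-strand neighbours of Hsp90b1 (1810014B01Rik, 415 shared exonic bases, 1.43 TPM), Syvn1 (Mrpl49, 91 bases, 5.53 TPM), Ddit3 (Mars, 68 bases, 7.08 TPM) and Manf (Dcaf1, 146 bases, 2.50 TPM), all lower than the gene they overlap. Of 13 pseudogenes named after Calr, Hspd1, Hspe1 or Phgdh, 10 were listed at 0 in every library, and Hspd1-ps3 (0.213 ± 0.0473 TPM) and Hspe1-ps5 (0.110 ± 0.115 TPM) had a mean of 0.1 TPM or more. Both lay far below Hspd1 and Hspe1 themselves.

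**Figure D2:**
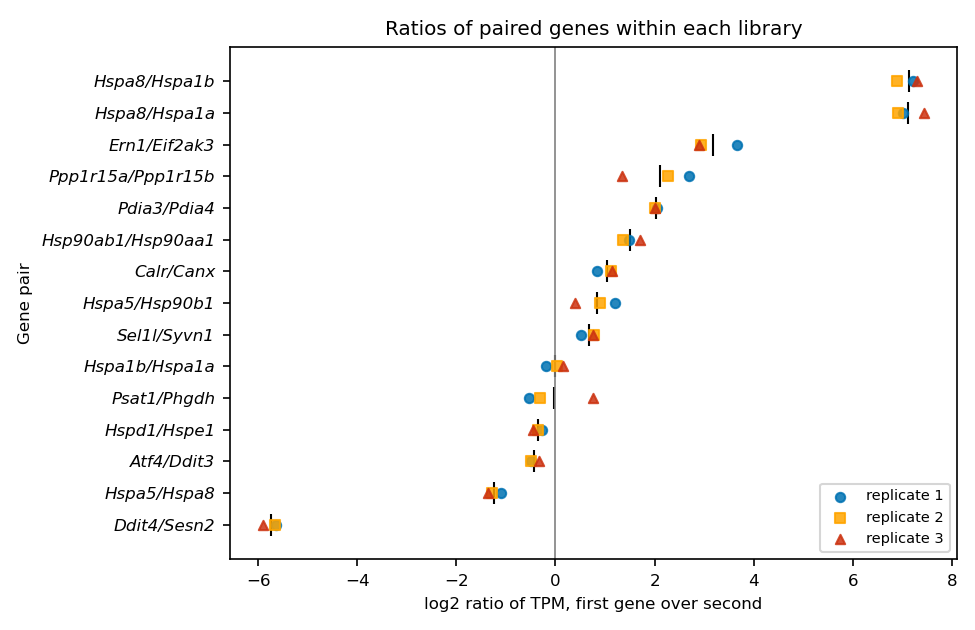
Log2 ratio of TPM within each library for 15 gene pairs, the first gene over the second, ordered by mean; points are the 3 libraries and vertical ticks their mean, and the grey line marks equal levels. Hspa8 lies about 7 log2 units above each inducible Hsp70 gene, Pdia3 over Pdia4 has the narrowest spread, and Hspa1b over Hspa1a and Psat1 over Phgdh have libraries on both sides of 0.

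An order of the libraries ran through the integrated stress genes, noticed in the values and then counted. In 10 of the 11, all but Psat1, the TPM was highest in replicate 1, intermediate in replicate 2 and lowest in replicate 3, against 32.4% of the 8838 detected protein-coding genes. The scale of the libraries enters here. Much of the TPM lies outside nuclear protein-coding genes, and the factor that rescales TPM to nuclear protein-coding genes alone was 3.02, 3.38 and 3.58 in replicates 1, 2 and 3. On this protein-coding scale the order was found in 9 of the 11 genes, all but Psat1 and Chac1, against 11.0% of the detected protein-coding genes. The same count was 1 of 4 for the sensors with Xbp1, 1 of 12 for the ER chaperones, 1 of 5 for the degradation genes and 0 of 10 for heat shock genes. No test was made of these counts.

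The span between libraries was also wide in this role. A highest TPM of 1.5 or more times the lowest was found in 13 of the 42 genes and in 9 of the 11 integrated stress genes, against 13.1% of the detected protein-coding genes. On the protein-coding scale the count was 11 of the 42 and 6 of the 11, against 12.5%. The median of this ratio in TPM was 1.90 for the 11 genes, 1.31 for heat shock genes, 1.17 for the ER chaperones and 1.21 for all detected protein-coding genes. On the protein-coding scale these medians were 1.61, 1.48, 1.30 and 1.23, so the integrated stress and heat shock genes lay closer together. The widest on both scales were Ppp1r15a (3.15 in TPM and 2.66 on the protein-coding scale) and Phgdh (3.03 and 2.56). The median CV in TPM was 28.2% over the 10 detected integrated stress genes, 15.4% over the 41 detected genes and 10.1% over all detected protein-coding genes. On the protein-coding scale it was 21.3, 15.9 and 10.7%, and 20.0% over the heat shock genes. Sequencing depth was lowest in replicate 1 and highest in replicate 2, and the summed neutrophil markers were 5.36, 2.93 and 5.52 TPM. The factor to the protein-coding scale rose from 3.02 to 3.38 and 3.58 over replicates 1, 2 and 3. The part of any of these in the order of the integrated stress genes was not tested.

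The heat shock genes did not show this order. In TPM, 8 of 10 were highest in replicate 2, against 38.5% of the detected protein-coding genes, and 2 (Hsp90ab1 and Hsph1) in replicate 3. Of the 10, 7 were lowest in replicate 1, against 24.1%. On the protein-coding scale these counts were the same, but 44.7% of the detected protein-coding genes were then highest in replicate 2 and 58.6% lowest in replicate 1, so 7 of 10 was not far from the background. No heat shock gene was highest in replicate 1 on either scale. The exceptions to the low value of replicate 1 were Hspa8, Hspa1a and Hspa1b, which were lowest in replicate 3.

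**Figure D3:**
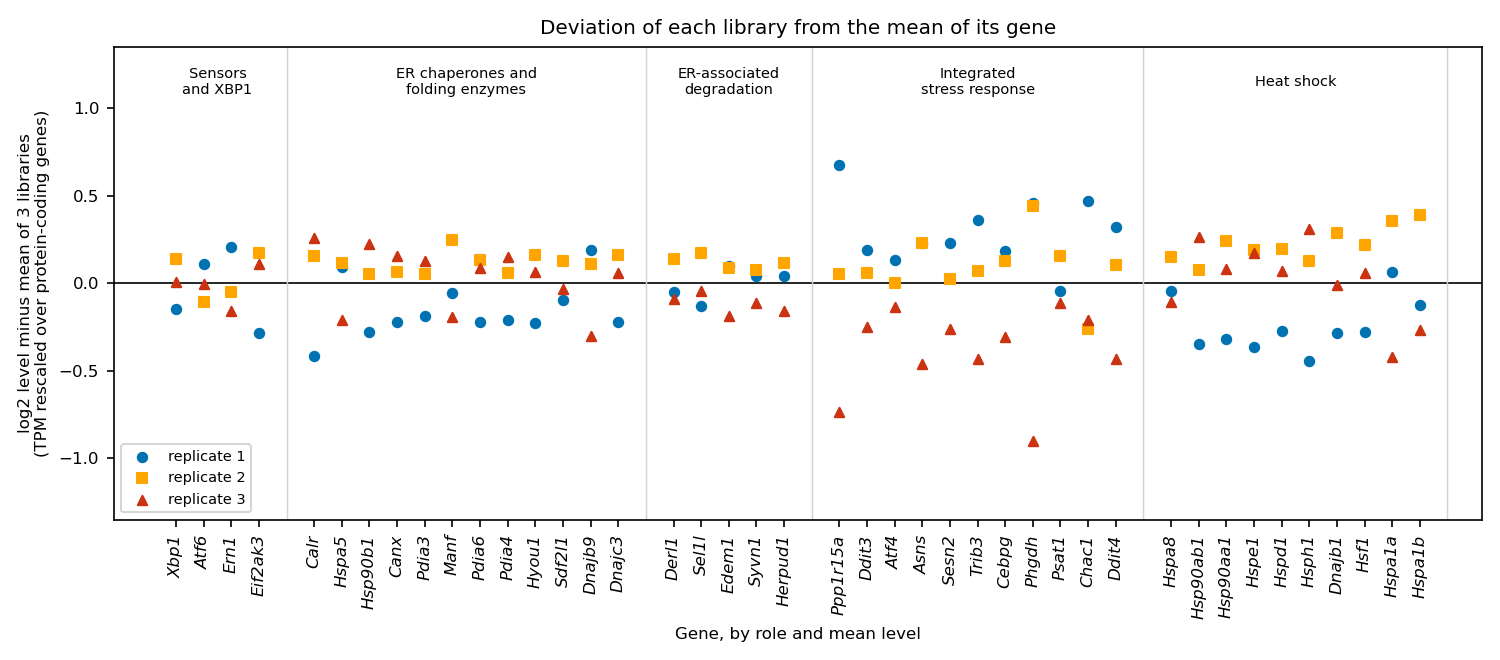
Log2 level of each gene in each library minus the mean over the 3 libraries, on the protein-coding scale, by role; points are single libraries. Replicate 1 lies above replicate 2 and replicate 2 above replicate 3 in 9 of 11 integrated stress genes, whereas replicate 1 is the lowest library of 9 of 12 ER chaperones and 7 of 10 heat shock genes, as of 58.6% of detected protein-coding genes.

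Whether a gene varied between these libraries more than genes of its abundance was tested on the whole table in edgeR, from the residual deviance of each of 12256 genes with Benjamini-Hochberg adjustment. Of all genes tested, 240 were called at an adjusted p under 0.05 (1.96%), and of the 42 genes 2 were called, both in the integrated stress role. Ppp1r15a had 563, 326 and 206 CPM (counts scaled to library size by TMM) in replicates 1, 2 and 3 (adjusted p = 0.00481 in edgeR). Phgdh had 12.1, 11.0 and 4.38 CPM (adjusted p = 0.00654 in edgeR). Without replicate 3 neither was called (edgeR adjusted p = 0.708 and 1), and without replicate 1 only Phgdh was (edgeR adjusted p = 0.374 for Ppp1r15a and 0.00858 for Phgdh). The share called among all genes tested fell as well, to 0.654% without replicate 3 and 0.932% without replicate 1. With all 3 libraries, a further 3 of the 42 genes had an unadjusted p under 0.05 in edgeR. Their edgeR adjusted p was 0.142 for Asns, 0.176 for Trib3 and 0.487 for Hspa1a. Atf4 and Ddit3 were not called (edgeR adjusted p = 1 for each), and their spread was not shown to exceed that of genes of their abundance.

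**Figure D4:**
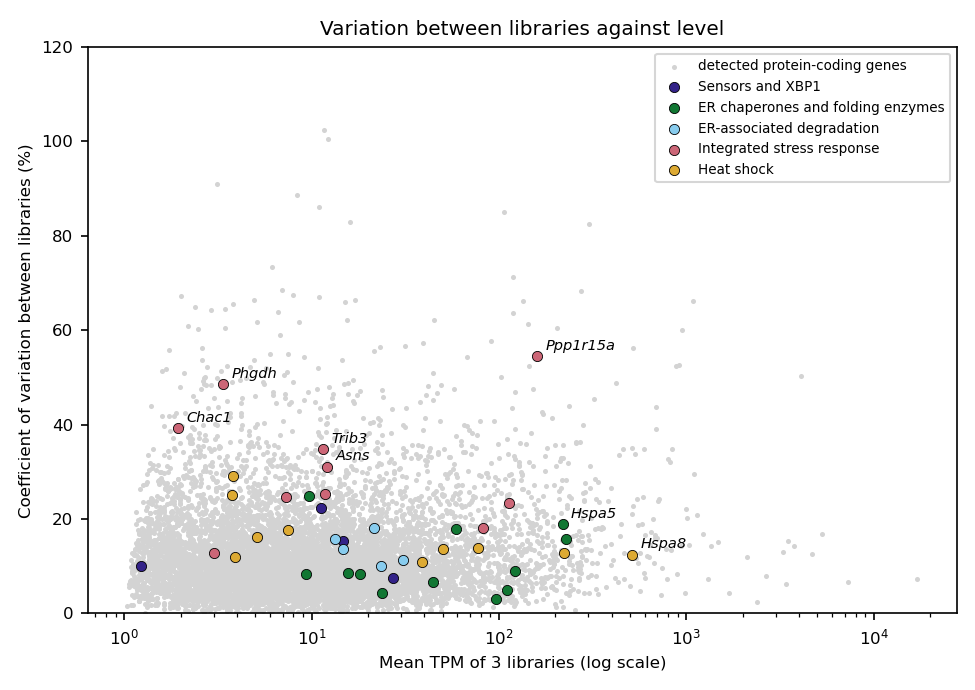
CV of TPM between the 3 libraries in percent against mean TPM on a log axis, for the 8838 detected protein-coding genes (grey) and the 41 detected genes of the 5 roles (coloured). Ppp1r15a and Phgdh lie highest among the 41, and the median of the 12 ER chaperones, 8.48%, lies below that of all detected protein-coding genes in TPM.

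Further genes of these pathways were counted from 4 lists. Of 29 other integrated stress genes 23 were detected, led by the amino acid transporter subunit Slc3a2 (169 ± 23.8 TPM) and the stress cytokine Gdf15 (135 ± 89.5 TPM), while Stc2 had 3 counts over all libraries and Fgf21 was listed at 0. In edgeR 4 of the 24 tested were called variable, against 240 of all 12256 genes tested (1.96%). Of these 4, Gdf15 stood at 237, 99.6 and 68.9 TPM (edgeR adjusted p = 3.77e-05). Slc38a2, a neutral amino acid transporter, stood at 17.7, 13.3 and 6.75 TPM (edgeR adjusted p = 0.00288). Slc7a11, the cystine transporter (2.34, 4.47 and 0.95 TPM, edgeR adjusted p = 7.14e-11), and Ndrg1 (3.55, 4.85 and 1.49 TPM, edgeR adjusted p = 0.000239) were highest in replicate 2. The order seen in the 11 genes was less frequent in this list. It held in 13 of the 29 in TPM, against 32.4% of the detected protein-coding genes. On the protein-coding scale it held in 5 of 29, against 11.0%. The 29 include undetected genes, and the background does not.

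The other lists held no gene called variable in edgeR at an adjusted p under 0.05. Of 30 other ER folding and degradation genes 26 were detected, led by the prolyl isomerase Ppib (115 ± 8.89 TPM) and the disulphide isomerase P4hb (72.4 ± 6.69 TPM), and Derl3 (0.0967 ± 0.0815 TPM) and Pdia5 (0.57 ± 0.19 TPM) were lowest. Of 25 other cytosolic heat shock genes 20 were detected, led by the J protein genes Dnaja1 (72.8 ± 5.30 TPM) and Dnajb6 (63.5 ± 8.14 TPM). The collagen chaperone Serpinh1 had 1 count in each library and the small heat shock gene Hspb8 was listed at 0. All 10 mitochondrial chaperone and protease genes were detected, from Grpel2 (1.57 ± 0.0833 TPM) and Grpel1 (4.76 ± 0.511 TPM) to Yme1l1 (18.5 ± 1.77 TPM) and Hspa9, the mitochondrial Hsp70 (72.9 ± 9.41 TPM).

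Per the notes deposited with the files, 1 transcript table was derived from transcriptome alignments and the other from the read files. They gave the same leading transcript in every library for 39 of the 42 genes. In the first, from the alignments, 26 of the 42 had 90% or more of their level in 1 transcript in every library. The shares of all genes were not counted for either. Several stress genes held a short entry beside the full-length mRNA. For Ppp1r15a the entry Ppp1r15a-203 of 389 nt took 36.5, 38.6 and 32.8% in the first transcript table but 11.6, 8.06 and 0% in the second. The library inserts were 250 to 400 nt, a range that holds the lengths of this entry and of Hsp90aa1-204 below (325 nt). What this does to their shares and to the gene levels was not tested. Ppp1r15a was also the only gene of the 42 whose level differed by more than 0.5 log2 units between tables on the protein-coding scale (-0.53, the second table over the gene table), which 2.15% of detected protein-coding genes did. The gene sums of the second table for Ppp1r15a were 94.0, 60.6 and 29.8 TPM. There Ppp1r15a was below Ddit3 in replicates 2 and 3 (66.3 and 45.6 TPM) and below Atf4 in replicate 3 (35.7 TPM). Its order of libraries was the same in both transcript tables when summed by gene.

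Short or unproductive entries were found for other chaperones. Hspa5-204, of 477 nt and annotated as a target of nonsense-mediated decay, took 15.0 ± 0.552% of the Hspa5 level in the first table and 22.8 ± 1.08% in the second. Calr-204, which retains an intron, took 11.6, 22.0 and 22.8% of the Calr level in replicates 1, 2 and 3 and, in the second table, 20.1, 32.8 and 29.9%, so it was lowest in replicate 1 by either table. For Manf the entry with a retained intron, Manf-205, took 31.4 ± 1.11% and 33.9 ± 1.77%. Retained introns were annotated in Hsp90aa1-204 as well, with 26.5, 25.7 and 19.4% in the first table and 18.5, 17.4 and 0.681% in the second. The leading transcript differed between tables for Hsp90aa1 (Hsp90aa1-202 with 47.9 ± 3.64% in the first, Hsp90aa1-201 with 65.5 ± 12.9% in the second) and for Syvn1, in every library, and for Psat1 in replicate 2 alone (Psat1-201 with 89.6% in the first, Psat1-205 with 52.2% in the second). Hspa8 was split between Hspa8-201 (60.0 ± 1.32%) and Hspa8-202 (38.1 ± 2.49%) in the first table, and the second gave 70.3 ± 12.7% and 18.5 ± 4.12%.

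**Figure D5:**
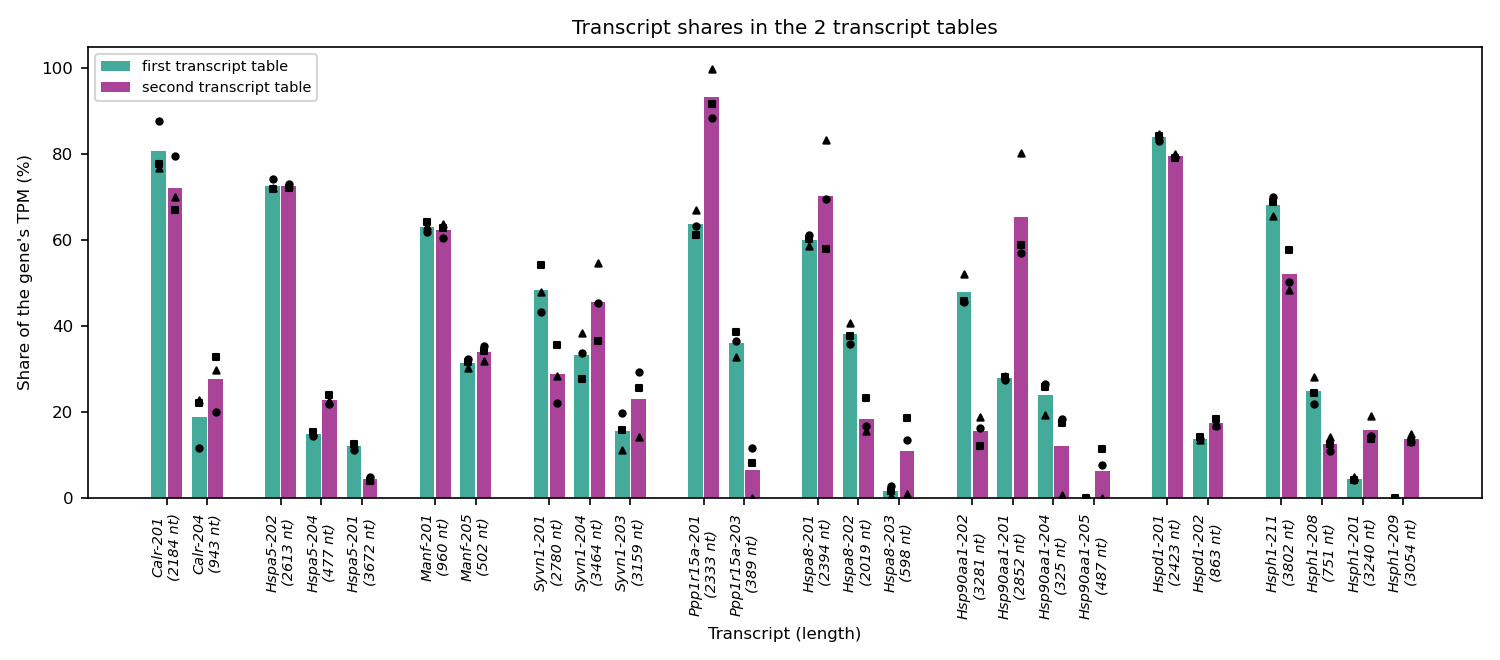
Share of the gene's TPM in percent for the transcripts above 10% in some library, in 9 genes with more than 1 such transcript; bars are means over 3 libraries, coloured by transcript table, and black points are single libraries (circle, square and triangle for replicates 1, 2 and 3). The leading transcript takes close shares in both tables for Hspa5, Manf and Hspd1, although Hspa5-204 and Hspa5-201 differ beyond their spread, and the tables are far apart for Ppp1r15a and Hsp90aa1.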

How the data were processed

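Per the notes that the authors deposited beside the files, tables use mm10 and GENCODE M21; no source used here names the programs. Expected counts and TPM are given per gene and per transcript as the authors deposited them, and percent values, per the file headers, are a transcript's share of its gene. Posterior SDs of counts are also deposited. The second transcript table came directly from reads, and its TPM were summed by gene. Features that are no annotated gene (0.227, 0.110 and 0.0959% of counts in replicates 1, 2 and 3) were left out.

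The members, lists and tests were chosen with earlier results of these data known, and support nothing by their choice. Every member may be named; from other lists, the 2 highest, the 2 lowest and up to 5 called variable. Log2 medians used a pseudocount of 1 TPM, pair ratios none. Expected counts were rounded for edgeR 4.0.16 (R 4.3.3; TMM, filterByExpr, trended dispersion, chi-square with 2 degrees of freedom), which was tested on simulated data. DESeq2 1.42.0 served as an alternative. Tables were handled in Python 3.11.15. Rescaling over protein-coding genes was chosen after seeing the data.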

Additional observations from a re-analysis of the deposited data

How the results depend on the processing

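No paired analysis was possible because the libraries form 1 group. The count of 41 detected genes lay between 33 (at 5 TPM) and 41 under every threshold, scale and table tried, and was 38 in the second transcript table, where Eif2ak3, Chac1 and Phgdh joined Ddit4 below 1 TPM. The order of the integrated stress genes, counted after seeing the data, held in 8 to 10 of 11 genes on the scales and tables tried. Of the role medians, that of ER chaperones moved to 2.58 with a pseudocount of 0.1, to 2.12 in the second table and to 2.87 on the protein-coding scale, and those of degradation genes to 0.93 and 1.59, heat shock genes to 0.64 and 1.31, sensors to 0.26 and 0.90 and integrated stress genes (0.34 in the main analysis) to 0.03 and 0.68 in the last 2 settings; the cause was not tested. Leaving out replicate 1 gave 0.18 for integrated stress genes, and leaving out replicate 3 gave 0.57. The 2 genes called variable in edgeR were 0 to 2 when a replicate was left out. The share called among all genes tested was then 0.654 to 0.932%, against 1.96% with all 3 libraries. The count was 2 under DESeq2 size factors, library size alone, no filter, DESeq2's dispersion trend and the second table. Without length correction, from expected counts, the log2 ratios of Atf4 to Ddit3 (0.76) and Hspd1 to Hspe1 (1.48) reversed, because the first gene of each pair has the longer mRNA. From these counts Calr to Canx (0.10 ± 0.13) and Ppp1r15a to Ppp1r15b (0.42 ± 0.65) no longer had 1 sign in every library, with replicate 1 (-0.05) and replicate 3 (-0.29) below 0. Depth limits Ddit4 most, with 20 to 42 counts.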
